A study of Rattus norvegicus with 8 samples.

Results

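The 10 liver genes of bile acid synthesis and transport followed here, across 8 arrays from adult male rats, were the enzymes Cyp7a1, Cyp8b1 and Cyp27a1, the nuclear receptors Nr0b2 and Nr1h4, the uptake transporters Slc10a1 and Slco1b2, and the exporters Abcb11, Abcg5 and Abcg8. They were chosen by name as an established pathway, and each was represented by the probe with the highest mean Cy5 signal among those matched to it through a RefSeq accession. All 10 were matched, out of 15154 genes with a probe. Of these, 9 were measured above background, as were 10004 genes in all. Abcg8, with raw Cy5 medians between 64.25 and 73.75, did not clear background on any of the 8 arrays and entered no comparison.

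The offspring formed an AhR and a control group. The AhR group came from dams dosed with agonists of the aryl hydrocarbon receptor (AhR), a blend of non-ortho polychlorinated biphenyls, dioxins and furans, at 1.8 ng/kg/day of dioxin toxic equivalents from gestation day 0 to postnatal day 20. The control group came from dams given the corn oil vehicle alone over the same days. All were Sprague-Dawley males raised by their own dams, and their livers were taken at an age of 78 to 86 days, after exposure had ended. Each group had 4 arrays on 1 slide, each array held the pooled RNA of 2 rats (8 pups a group), and the labels do not say whether pools shared a litter, so the spread measured here is the spread between pools.

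Bile acids are made from cholesterol in hepatocytes. Cyp7a1 catalyses the rate-limiting first step of the classical route. Cyp8b1 adds the hydroxyl group that makes cholic acid and so sets the composition of the pool. Cyp27a1 begins the alternative route and oxidises the sterol side chain. Nr1h4, also called FXR, is the receptor that senses bile acids. It induces Nr0b2, also called SHP, a partner protein without a DNA-binding domain that represses Cyp7a1 and Cyp8b1 by way of Nr5a2 (LRH-1) and Hnf4a. Slc10a1 and Slco1b2 take bile acids up from the blood, Abcb11 pumps bile salts into bile, and Abcg5 and Abcg8 together form the exporter of cholesterol and plant sterols. Cyp7a1 and Nr0b2 are known to follow a daily rhythm in rodent liver.

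A pair of DNA stretches is shown because Nr0b2 and Abcg5, next to them, varied widely between arrays. The first is the sequence directly upstream of Nr0b2 in the RefSeq annotation of GRCr8, at chr5:151062910-151063159 on the plus strand. The second is the whole interval between Abcg5 and Abcg8, which are transcribed head to head, at chr6:15717731-15717935 on the plus strand. Capitals mark CACGTG (an E-box), TCAAGG (the core motif of LRH-1) and TATAAA in the first, and TATAAA and GATAA on either strand in the second.
Nr0b2: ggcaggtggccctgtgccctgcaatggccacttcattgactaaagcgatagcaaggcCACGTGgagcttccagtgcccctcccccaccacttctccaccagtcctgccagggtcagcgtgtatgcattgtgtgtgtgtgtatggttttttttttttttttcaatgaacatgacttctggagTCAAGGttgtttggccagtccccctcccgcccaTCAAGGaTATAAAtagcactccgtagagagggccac
Abcg5-Abcg8: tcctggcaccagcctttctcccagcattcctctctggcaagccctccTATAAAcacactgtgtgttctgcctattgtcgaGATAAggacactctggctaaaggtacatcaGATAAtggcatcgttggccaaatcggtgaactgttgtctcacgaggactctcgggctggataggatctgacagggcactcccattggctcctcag
The E-box began 193 bases before the annotated start of Nr0b2, the LRH-1 core motifs 69 and 36 bases before it, and TATAAA 29 bases before it. These motifs were searched on both strands in the promoter windows of the 7 members with an entry, and in 33469 promoters in all. Cyp7a1, Nr1h4 and Abcb11 had no entry and were not searched. Each window held the 250 bases upstream and a short stretch past the annotated start. All matches in members lay upstream of the start. CACGTG was found in 1 of the 7 members and in 6.42% of all promoters, TCAAGG in 1 and 14.8%, TATAAA in 4 and 14.2%, and GATAA in 2 and 26.5%. The nuclear receptor core AGGTCA was found upstream of Cyp27a1, Slc10a1 and Slco1b2, and in 16.2% of all promoters. Windows of Abcg5 and Abcg8 overlap, so their TATAAA and GATAA matches come from shared DNA. A match describes letters in this window and not a bound site.

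The liver RNA was labelled with Cy5 and a universal rat reference RNA, made from cell lines, with Cy3, without a dye swap. Values below are log2 Cy5/Cy3 ratios after background correction and loess normalization, so they are relative to the reference and are compared only within a gene. Median Cy5 signals were 159 to 232 over a background of 71 to 76, and no probe was saturated in Cy5. All 10 hepatocyte markers, Alb and Cyp3a2 among them, were above background on every array. Their mean log2 ratio was 0.01 to 0.21 in AhR and -0.08 to 0.24 in control livers. Of 4 markers of ileum, 3 were matched to a probe, and none of these probes was kept.

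No measured member passed the test between AhR and control livers, while Nr0b2, Cyp7a1 and Abcg5 varied strongly among pools of the same group. Of the 9 members, 0 passed an adjusted p of 0.05 in limma (0% of 17859 probes tested passed it) and 0 passed an unadjusted p of 0.05 (1.61% of probes did). None had groups without overlap, against 1.19% of all probes. Of the 9, 7 had a lower mean in AhR livers, with a median log2 difference of -0.02, against 52.3% of all probes and a median of -0.01. The lowest adjusted p of any probe was 1.00. In liver tissue fewer cells of a type and less RNA per cell cannot be told apart.

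**Figure D1:**
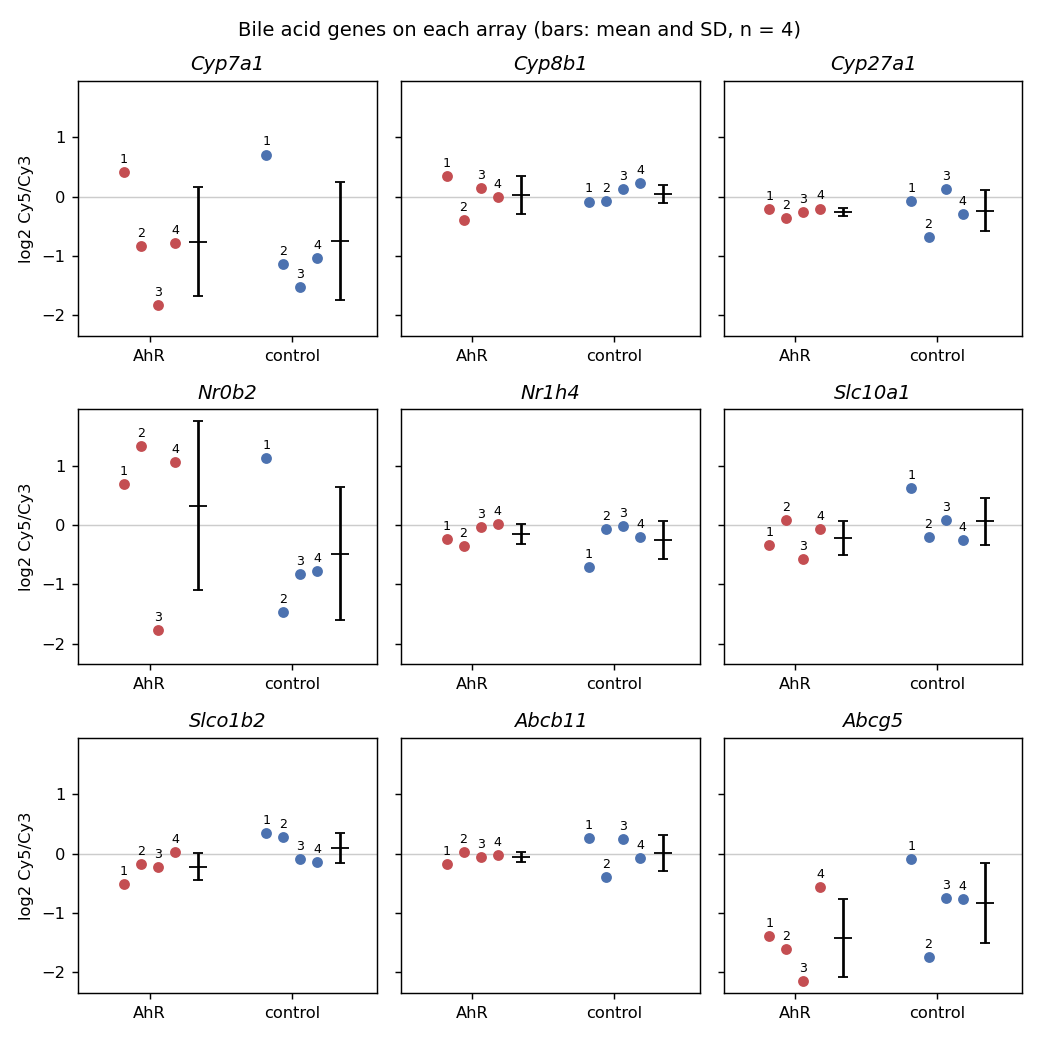
Log2 Cy5/Cy3 ratio (vertical axis) of each measured member on the 4 AhR arrays, left, and the 4 control arrays, right; points are arrays with their replicate numbers, and bars give the mean and SD of each group (n = 4). Nr0b2, Cyp7a1 and Abcg5 range widely within both groups, and all 9 members overlap between the groups.

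Cyp7a1, the rate-limiting enzyme, had log2 ratios of 0.42, -0.84, -1.84 and -0.78 in AhR livers, against 0.71, -1.13, -1.53 and -1.04 in control livers. In each group replicate 1 was far above the rest and replicate 3 was the lowest. The means were -0.76 ± 0.92 in AhR and -0.75 ± 1.00 in control livers (SD, n = 4 each), a difference of -0.01 (SE 0.52, 95% interval -1.15 to 1.13, limma p = 0.983, exact permutation p = 0.971). The interval spans about a doubling in either direction, so the design leaves a change of that size unresolved. From the lowest to the highest array Cyp7a1 covered a 5.85-fold range. Its within-group SD of 0.96 ranked 16 among 10004 genes, whose median was 0.17.

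Spots of Cyp7a1 differed far less than arrays did. The probe was printed as 10 spots on each array, whose median SD within an array was 0.05, and keeping the 18 outlier-marked spots moved no array by more than 0.02. Over the 8 arrays, groups together, the Cy5 channel alone had an SD of 0.85 (log2), and the Cy3 SDs of the members lay between 0.05 and 0.09.

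Arrays with the same replicate number, which shared a column of the slide, had like Cyp7a1 values. AhR minus control was -0.29, 0.29, -0.31 and 0.26 in columns 1 to 4, and between the slide's rows it was -0.40 in row 1 and 0.38 in row 2. With the column as a block the SE of the difference was 0.14 in limma. The comparison with columns was chosen after the values were seen. Among 10004 genes, 0.69% had an unmoderated SE that shrank by as large a factor once columns were taken out. For each of the other members that share was 25.0% or more. The labels give the numbers no meaning beyond the replicate, and the part of the slide column in these values was not tested.

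Cyp8b1, the enzyme of cholic acid formation, had ratios of 0.36, -0.40, 0.15 and -0.01 in AhR livers, against -0.08, -0.08, 0.13 and 0.23 in control livers. The AhR arrays reached both above and below all control arrays. The difference was -0.02 (SE 0.15, 95% interval -0.37 to 0.32, limma p = 0.878, exact permutation p = 0.886). Its within-group SD was 0.25, well under that of Cyp7a1, the enzyme it acts after. Cyp27a1, of the alternative route, had ratios of -0.21, -0.36, -0.25 and -0.20 in AhR livers, against -0.08, -0.68, 0.12 and -0.30 in control livers. The means were -0.26 ± 0.07 and -0.23 ± 0.34 (SD, n = 4 each), so the AhR arrays lay inside the control range. Whether the SDs differed was not tested. The difference in means was -0.02 (SE 0.15, 95% interval -0.36 to 0.32, limma p = 0.882, exact permutation p = 0.886).

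Nr0b2, the repressor, was the most variable member. Its log2 ratios were 0.70, 1.34, -1.78 and 1.06 in AhR livers, against 1.13, -1.47, -0.82 and -0.77 in control livers. AhR replicates 1, 2 and 4 and control replicate 1 were high, while AhR replicate 3 was the lowest of all. Raw Cy5 medians of the probe were 21788.5, 48479.2, 4379 and 22497.2 on the AhR arrays, against 26842.8, 3971.5, 7662 and 9231.5 on the control arrays, all far above background. The means were 0.33 ± 1.43 in AhR and -0.48 ± 1.12 in control livers (SD, n = 4 each). The difference of 0.81 (SE 0.69, 95% interval -0.70 to 2.33, limma p = 0.261, exact permutation p = 0.457) was smaller than the spread. It was 1.04 in slide row 1 and 0.58 in row 2. AhR replicate 3 weighed most on it: without that array the difference was 1.52, with an unadjusted limma p of 0.0125 and an adjusted p of 0.927 or more under all alternatives. Omitting control replicate 1 gave 1.35, and omitting AhR replicate 2, or else control replicate 2, gave 0.48.

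Within groups the SD of Nr0b2 was 1.28, rank 2 of 10004 genes, and the arrays covered an 8.65-fold range. The 2 spots of its probe differed by a median SD of 0.08 on an array. Nr1h4, the bile acid receptor that induces Nr0b2, had ratios of -0.23, -0.36, -0.03 and 0.01 in AhR livers, against -0.71, -0.06, -0.02 and -0.20 in control livers. Control replicate 1 was the lowest, and the others lay close together. The difference was 0.10 (SE 0.16, 95% interval -0.25 to 0.44, limma p = 0.554, exact permutation p = 0.657). A dimmer probe for Nr1h4 gave -0.05 (SE 0.17), and r between the probes over the 8 arrays was 0.40, so its variation between arrays is poorly determined.

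**Figure D2:**
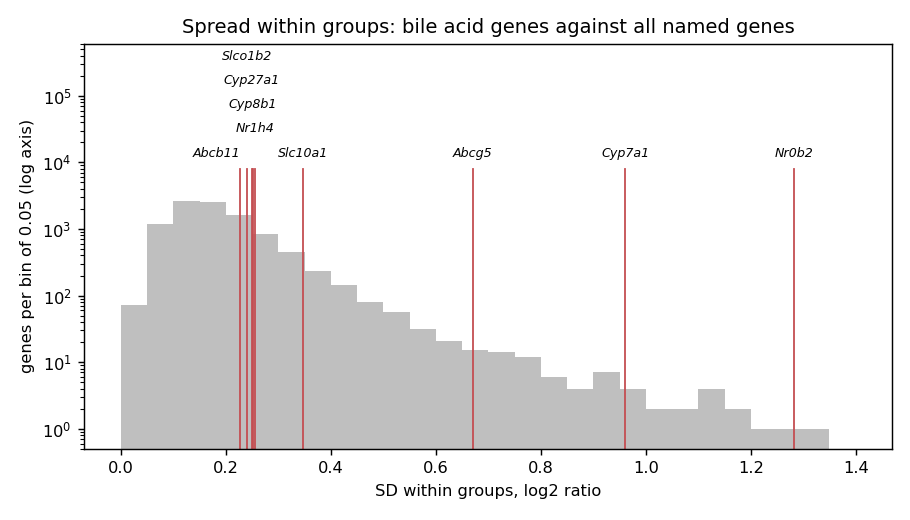
Within-group SD of the log2 ratio over all 10004 genes with a kept probe (grey histogram, genes per bin on a log axis) and of the 9 members (red lines). Nr0b2, Cyp7a1 and Abcg5 stand at 1.28, 0.96 and 0.67, beyond most genes, and the median gene at 0.17.

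Among the uptake transporters, Slco1b2, a carrier of bile acids and many drugs, came nearest to a group difference. Its ratios were -0.52, -0.17, -0.23 and 0.03 in AhR livers, against 0.34, 0.29, -0.10 and -0.15 in control livers. AhR replicates 1, 2 and 3 lay below every control array and AhR replicate 4 within the control range. The difference was -0.32 (SE 0.15, 95% interval -0.65 to 0.01, limma p = 0.0568, adjusted p = 1.00, exact permutation p = 0.143), and it was -0.19 in slide row 1 and -0.45 in row 2. The probe was 1 spot.

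Slc10a1, the sodium-dependent carrier of conjugated bile acids, had ratios of -0.33, 0.08, -0.57 and -0.07 in AhR livers, against 0.62, -0.20, 0.08 and -0.25 in control livers. Control replicate 1 was highest and the groups otherwise overlapped. The difference was -0.29 (SE 0.20, 95% interval -0.73 to 0.15, limma p = 0.178, exact permutation p = 0.314), and -0.10 without control replicate 1. With slide row as a block the unadjusted limma p was 0.0497.

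Abcb11, the bile salt export pump, had ratios of -0.17, 0.03, -0.05 and -0.02 in AhR livers, against 0.26, -0.39, 0.25 and -0.08 in control livers. The AhR arrays lay inside the control range, with SDs of 0.08 and 0.31. The difference was -0.06 (SE 0.14, 95% interval -0.38 to 0.25, limma p = 0.660, exact permutation p = 0.743). Abcg5, one of the sterol exporter's partners, had ratios of -1.39, -1.60, -2.16 and -0.57 in AhR livers, against -0.09, -1.74, -0.75 and -0.77 in control livers. AhR replicate 3 was lowest and control replicate 1 highest, with overlap between. The means were -1.43 ± 0.66 in AhR and -0.84 ± 0.68 in control livers (SD, n = 4 each).

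The difference of Abcg5 was -0.59 (SE 0.36, 95% interval -1.40 to 0.21, limma p = 0.133, exact permutation p = 0.286). It was -0.66 in slide row 1 and -0.52 in row 2. Leaving out AhR replicate 4 or control replicate 2 gave -0.88 and -0.89, and leaving out AhR replicate 3 or control replicate 1 gave -0.35 and -0.34. Its range of 4.20-fold and SD of 0.67 ranked 67 among 10004 genes. Abcg8, transcribed from the other end of the interval printed above, could not be set beside it.

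**Figure D3:**
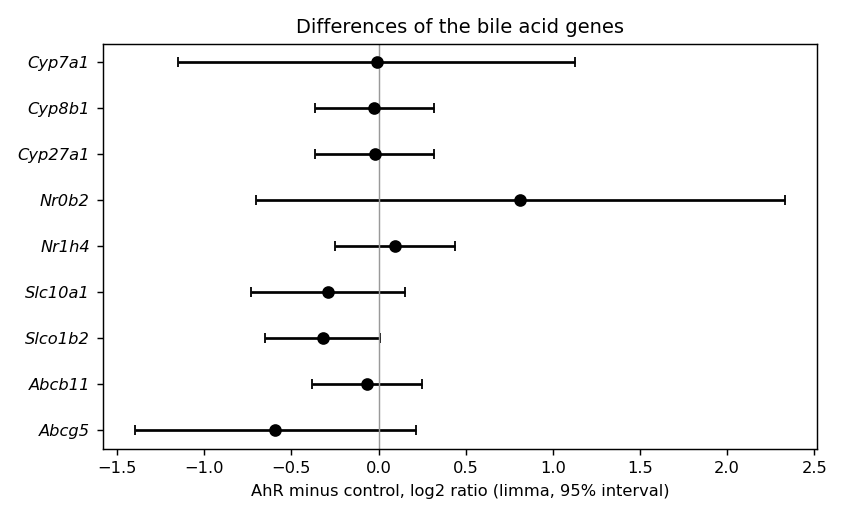
Difference of mean log2 ratio, AhR minus control, for each measured member (points) with 95% intervals from limma (bars). Every interval includes 0, and those of Nr0b2 and Cyp7a1 are the widest.

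The arrays were then used to set the repressor Nr0b2 against its targets. Over the 8 arrays Nr0b2 and Cyp7a1 had a Pearson r of 0.72 (exact permutation p = 0.0408, 0.326 after adjustment over 8 relations) and a Spearman rho of 0.81 (exact permutation p = 0.0218, adjusted 0.174). Arrays with more Nr0b2 transcript thus tended to have more Cyp7a1 transcript, although the relation did not pass adjustment. AhR replicates 1, 2 and 4 and control replicate 1, high for Nr0b2, had Cyp7a1 ratios of 0.42, -0.84, -0.78 and 0.71. The others had -1.84 to -1.04. Among the high arrays Cyp7a1 did not rise with Nr0b2: AhR replicate 2 was highest for Nr0b2 (1.34) and lowest of them for Cyp7a1. The Nr0b2 protein was not measured. Without AhR replicate 3 and control replicate 2, the arrays farthest from the median of Nr0b2, r was 0.59 (exact permutation p = 0.169). Within the groups r was 0.66 over 4 AhR and 0.92 over 4 control arrays, and within the slide it was 0.62 in row 1 and 0.97 in row 2. With group means removed it was 0.77 (exact permutation p = 0.066, adjusted 0.149). The largest gap between neighbouring Nr0b2 values was 0.473 of their range. With Cy5 alone, without AhR replicate 1, 2 or 3, or without the 2 extreme arrays, it was 0.507 to 0.683, which makes separate clusters in which no pooled relation is read.

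Nr0b2 and Cyp8b1 had a Pearson r of -0.39 (exact permutation p = 0.353, adjusted 0.477) and a Spearman rho of -0.50 (exact permutation p = 0.216, adjusted 0.288). Without the same 2 arrays r was -0.59 (exact permutation p = 0.239). It was -0.44 within AhR and -0.31 within control arrays, and it changed sign between the slide's rows, with -0.74 in row 1 and 0.77 in row 2. Whether the relations of Nr0b2 to the 2 enzymes differ was not tested. Of the other members, r with Nr0b2 was 0.59 for Slc10a1, -0.57 for Nr1h4, 0.50 for Abcg5, 0.37 for Abcb11, 0.24 for Cyp27a1 and -0.01 for Slco1b2. None of the 8 relations had an adjusted exact permutation p under 0.05. With group means removed, a setting planned for Cyp7a1 and Cyp8b1 alone, r was 0.88 for Slc10a1 (exact permutation p = 0.00868, adjusted 0.0694). For Abcg5 it was 0.79 (exact permutation p = 0.0625, adjusted 0.149). Without the 2 extreme arrays r was 0.34 for Slc10a1 (exact permutation p = 0.515) and -0.12 for Abcg5 (exact permutation p = 0.836). The arrays left form separate clusters of Nr0b2, so no pooled relation is read there. Within slide rows 1 and 2 r was 0.20 and 0.25 for Slc10a1 and -0.10 and 0.51 for Abcg5. All of these lay under the values with group means removed. The like relation of Abcg8, the ninth planned, could not be computed.

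**Figure D4:**
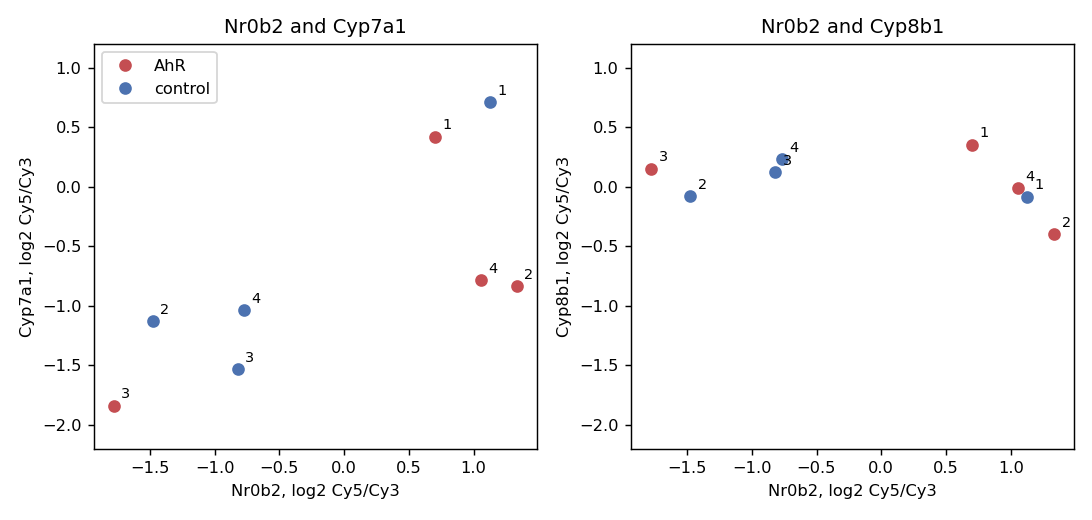
Log2 ratio of Cyp7a1 and of Cyp8b1 (vertical axes) against that of Nr0b2 (horizontal axis), with AhR and control arrays marked and numbered by replicate. Cyp7a1 tends to be higher on arrays with more Nr0b2 (r = 0.72), though not among the arrays high for Nr0b2, and Cyp8b1 shows a weaker opposite slope (r = -0.39).

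The mean log2 ratio of 6 of 6 Kupffer cell and macrophage markers, all above background on every array, ranged from -0.34 to 0.25 in AhR and from -0.92 to 0.12 in control livers. It was lowest on control replicate 1, where Cyp7a1 was highest, and highest on AhR replicate 3, where Cyp7a1 and Nr0b2 were lowest. Over the 8 arrays its r was -0.75 with Nr0b2 and -0.74 with Cyp7a1, opposite in direction to both genes and given as a description with no test. Of the cell type lists this one had the largest r in size with both genes. The mean of hepatocyte markers had r of 0.39 with Nr0b2 and 0.14 with Cyp7a1. Cholangiocyte, stellate, endothelial and erythroid lists had r of -0.27, 0.04, -0.20 and -0.09 with Nr0b2. With Cyp7a1 they had -0.16, -0.14, 0.04 and -0.02. The cholangiocyte mean mostly followed Onecut1, whose within-group SD was 1.15, against 0.14 to 0.27 for the other markers of that list. Its r without Onecut1 was not computed, so the values given do not describe those other markers. The part of any cell type in the relation was not tested.

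Across all 36 pairs of members, none had an adjusted exact permutation p under 0.05. The closest pair was Cyp27a1 and Abcb11, with r of 0.87 (exact permutation p = 0.00826, adjusted 0.297) and a Spearman rho of 0.67 (exact permutation p = 0.0831). It rested on control livers: r was -0.65 within AhR and 0.96 within control arrays, and 0.54 without control replicates 2 and 3. Cyp7a1 and Nr1h4 had r of -0.76 with the brighter Nr1h4 probe and -0.40 with the dimmer probe.

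The genes whose pattern over the 8 arrays was most like those of the central members were taken from 9995 genes, as a description. For Nr0b2 they were Bag4 (r = 0.96), Gpx2 (0.93), Dcdc2 (0.92) and Acvr2b (0.92), and the most opposite were Smco4 (-0.97), Usp12 (-0.95), Dctn4 (-0.93) and Zfand2a (-0.91). For Cyp7a1 the most alike were Nmrk1 (0.96), Pigh (0.96), Mat1a (0.95) and Abhd15 (0.95), and the most opposite were Crip1 (-0.98), RT1-Da (-0.96), Lin37 (-0.96) and Coa4 (-0.95). Mat1a makes the methyl donor S-adenosylmethionine in liver, and RT1-Da is a class II antigen-presenting molecule of immune cells. For Cyp8b1 the most alike were Cabin1 (0.97), Tpcn1 (0.95), C10h17orf49 (0.95) and Ppp1r11 (0.95), and the most opposite Plcd4 (-0.97), Ndufv3 (-0.97), Or6al2 (-0.94) and Or2y1i (-0.94). Some of these genes hardly varied: the SD over all arrays was 0.04 for Or2y1i, 0.05 for Dctn4, 0.07 for Plcd4 and 0.09 for Coa4. It was 0.37 for Gpx2 and 0.38 for RT1-Da. All were picked as extremes of 9995 genes over 8 arrays, and none was tested. An r of the size seen between Nr0b2 and Cyp7a1 was reached by 4.44% of genes with Nr0b2 and 7.49% with Cyp7a1. It was thus not particular to this pair.

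Because Cyp7a1 and Nr0b2 are known to follow a daily rhythm, the members were also set against Dbp, a transcription factor driven by the clock. Dbp had log2 ratios of 1.41, 1.22, 0.08 and -2.21 in AhR livers, against 0.32, -1.36, -1.52 and -0.42 in control livers, so both groups held high and low arrays. Over the 8 arrays r with Dbp was 0.47 for Cyp7a1, 0.34 for Nr0b2 and -0.03 for Cyp8b1. Nr1h4 was the most negative, with r of -0.59 (exact permutation p = 0.117, adjusted 0.742 over 9 relations) and a Spearman rho of -0.83 (exact permutation p = 0.015, adjusted 0.138). Without AhR replicates 1 and 4, the arrays farthest from the median of Dbp, r was -0.61 (exact permutation p = 0.189). With group means removed, a setting chosen after the data were seen, r of Nr1h4 over all arrays was -0.73. Its exact permutation p was 0.00521, and 0.0469 after adjustment over the 9 relations of that setting alone. The dimmer Nr1h4 probe had r of -0.66 with Dbp.

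Other clock genes also varied within groups. Bmal1, which drives the clock's positive limb, had ratios of -0.66, -1.33, -0.29 and 0.91 in AhR livers, against -0.57, 0.43, 0.23 and 0.63 in control livers. AhR replicate 4 was highest for Bmal1 and lowest for Dbp, and AhR replicate 2 was lowest for Bmal1. Per2, a repressor of the clock, ran from -0.70 to 0.92 in AhR and from -0.17 to 0.43 in control livers. Nr1d1 ran from -0.10 to 0.52 and from -0.38 to 0.44, and Nfil3 from -0.62 to 0.63 and from -0.32 to 0.72, AhR first in each. Of 13 clock genes measured out of 18, 0 passed an adjusted p of 0.05 in limma and 0 an unadjusted p of 0.05, against 0% and 1.61% of all probes. The mean was lower in AhR livers for 5 of the 13, against 52.3% of all probes.

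The wider bile acid pathway gave no call either. Of 48 further genes listed, 39 were measured, and 0 passed an adjusted p of 0.05 in limma or an unadjusted p of 0.05, against 0% and 1.61% of all probes. The mean was lower in AhR livers for 26 (66.7%) and higher for 13, with a median difference of -0.05, against 52.3% lower and a median of -0.01 over all probes. Among 16 measured enzymes of synthesis, 11 (68.8%) had a lower mean and the median was -0.06, to be read against the same 52.3%. The smallest p belonged to Akr1d1, the reductase of the steroid ring (-0.34, SE 0.19), Baat, which conjugates bile acids to taurine and glycine (-0.19, SE 0.13), and Akr1c14 (0.21, SE 0.14).

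Of 13 further transporters listed, 8 were measured, and Abcc3, Abcb1a, Slc51a and Slc10a2 were not above background on enough arrays. Slc51b was matched to no probe. The smallest p belonged to Abcc2, the canalicular exporter of conjugates (0.24, SE 0.16), and to the uptake carriers Slco1a1 (-0.10, SE 0.10) and Slco1a4 (-0.30, SE 0.33). Of 15 measured regulators, 10 (66.7%, against 52.3% of all probes) had a lower mean, with a median of -0.05. Nr5a2, the receptor through which Nr0b2 acts, differed by -0.26 (SE 0.13), and Hnf4a, the other one, by 0.17 (SE 0.11).

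Prox1, a partner of Nr5a2 and Hnf4a that represses Cyp7a1 in human liver cells, had ratios of -0.04, -0.03, -0.07 and -0.07 in AhR livers, against 0.11, 0.10, 0.09 and 0.11 in control livers. Every AhR array lay below every control array, as for 0.56% of all probes. The difference was -0.15 (SE 0.08, limma p = 0.076, adjusted p = 1.00, exact permutation p = 0.0286, the smallest that 4 against 4 arrays allow), so it did not pass adjustment. The probe was dim, with raw Cy5 medians of 106.25 to 126.5 in AhR and 108.75 to 119.5 in control livers, which overlap before normalization. Its within-group SD of 0.02 was the smallest of the 10004 genes.

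**Figure D5:**
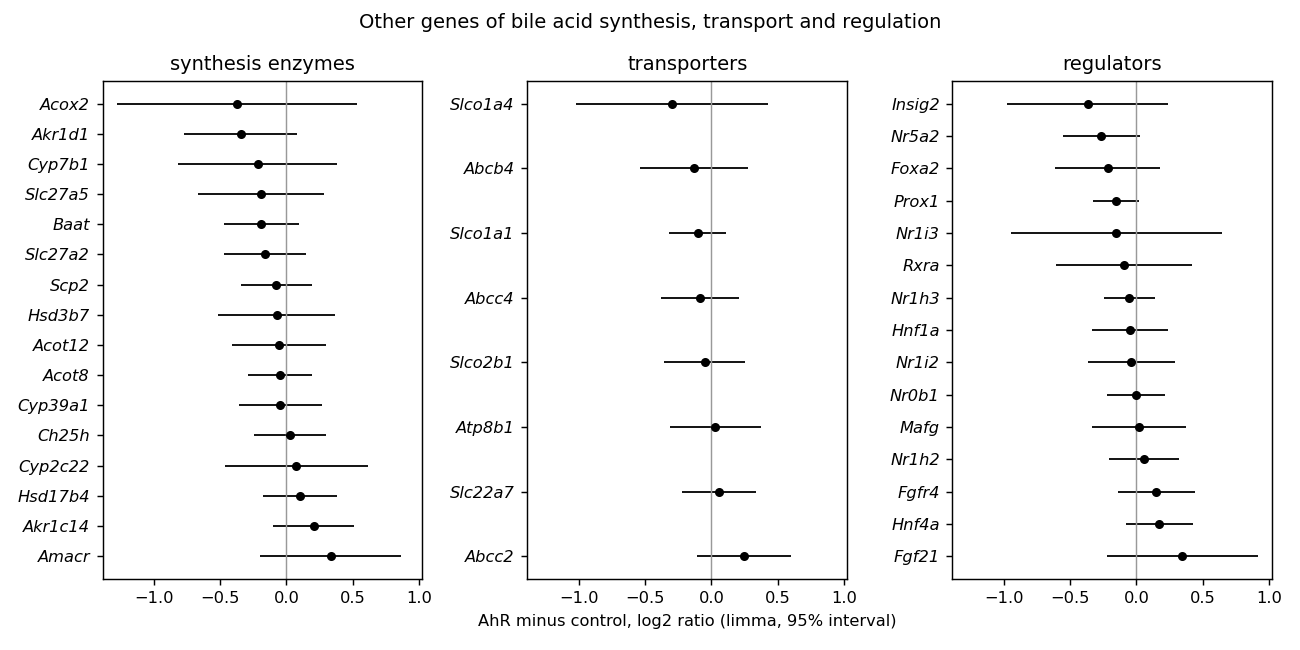
Difference of mean log2 ratio, AhR minus control, for the further bile acid genes in 3 panels by list (points are genes, lines are 95% intervals from limma). Every interval includes 0, and the medians of the synthesis, transporter and regulator lists are -0.06, -0.07 and -0.05.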

How the data were processed

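Rat liver RNA (Cy5) was hybridised with reference RNA (Cy3), per the labels. Per the file headers, the deposited intensity values were written by Agilent Feature Extraction 10.7.3.1. The median pixel intensity of each spot and of its surroundings was used, in place of the planned mean. The authors also deposited a log2 value table, used as an alternative. Against the scanner values its direction was Cy5 over Cy3, with r of 0.990 to 0.994 to unsubtracted loess ratios and column medians of 0.00569 to 0.0165. The exact form of its dye correction is unknown.

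Background was corrected by normexp (offset 50) and each array was loess-normalized (limma 3.58.1, R 4.3.3), leaving out control and outlier-marked spots and averaging spots of a probe. Of 62976 spots, 4259 were controls, and 30367 probes remained. The 17859 with Cy5 well above background on at least 4 of 8 arrays were kept (56.2% to 62.0% of probes per array). RefSeq accessions were matched without versions to the GRCr8 gene table, naming 18004 probes, 11656 of them kept. The number of arrays limits the precision.

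Groups were compared by limma (lmFit and eBayes), with Benjamini-Hochberg adjustment over all kept probes, beside two-sided exact permutation tests for single genes. Relations over arrays were Pearson r and Spearman rho with two-sided exact permutation p. The relations planned included Abcg8, which left 8 for Nr0b2 and 9 for Dbp. From each further list the 3 genes of smallest p were named, with fixed clock genes and, for Nr0b2, Cyp7a1 and Cyp8b1, the 4 genes most alike and most opposite. The members and lists were chosen with earlier results of these data known. Scripts were tested on simulated data. Alternatives were other background corrections and normalizations, the value table, no filter, other variance settings, slide row and replicate blocks, and leaving out each array. Arrays of the series beyond these 8 are not analysed here.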

Additional observations from a re-analysis of the deposited data

How the results depend on the processing

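Under 19 alternatives the members and the other bile acid genes past an adjusted p of 0.05 stayed at 0 (lowest adjusted limma p 0.913). The differences of Nr0b2 (0.48 to 1.52), Slc10a1 (-0.39 to -0.10), Slco1b2 (-0.40 to -0.22) and Abcg5 (-0.89 to -0.34) kept their sign in all 19. Those of the members near 0 did not. Cyp7a1 was 0.0146 with Agilent's processed signals, 0.0630 with median centring and 0.00455 with Cy5 alone, and -0.40 to 0.47 on leaving out each array. Cyp8b1 was 0.0426 with median centring and -0.13 to 0.12 on leaving out each array. Cyp27a1 was 0.0113 with processed signals and 0.0477 with median centring, and -0.17 to 0.10 on leaving out each array. Abcb11 was 0.00785 with median centring and -0.20 to 0.0187 on leaving out each array, and Nr1h4 -0.0585 to 0.17. Median centring moved the median of all probes to 0.04. The causes were not tested.

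In 5 of the 19 alternatives the arrays formed separate clusters of Nr0b2 and no relation is read. In the other 14, r of Nr0b2 with Cyp7a1 was 0.67 to 0.85 and with Cyp8b1 -0.74 to -0.02. The 5 of these that left out 1 array gave 0.67 to 0.78 and -0.54 to -0.34. With the replicate block r was 0.85 for Cyp7a1 and -0.74 for Cyp8b1 (exact permutation p = 0.125 each, the smallest that the block allows). With the slide-row block r was 0.80 and -0.02. Of the relations rerun, that of Dbp to Nr1h4 alone passed adjustment, at -0.73 with group means removed. That setting was chosen after the data were seen. The labels do not say whether the replicate numbers pair the samples, and the number is also the slide column. Deviations of same-numbered arrays over all probes had correlations of 0.00, -0.06, 0.05 and -0.37. Those of differently numbered arrays ran from -0.32 to 0.28, so these values cannot decide whether samples were paired. The block left the counts of calls at 0. With 4 pools a group, the intervals still hold log2 differences from -1.15 to 1.13 for Cyp7a1 and from -0.70 to 2.33 for Nr0b2.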

Other observations

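Onecut1, a liver and bile duct transcription factor that stood in the cholangiocyte marker list and was singled out after its values were seen, also varied widely within groups. Its log2 ratios were 1.04, -1.24, 1.34 and 0.15 in AhR livers, against -1.53, 0.17, 1.11 and 0.58 in control livers, with a within-group SD of 1.15. Its lowest arrays, control replicate 1 and AhR replicate 2, were among the highest arrays for Nr0b2. Its highest, AhR replicate 3, was the lowest for Nr0b2. Other arrays did not follow this: AhR replicate 1 was high for both (1.04 for Onecut1, 0.70 for Nr0b2). Control replicate 2 was low for Nr0b2 (-1.47) with an Onecut1 ratio of 0.17. The part of Onecut1 in the relations above was not tested.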
